A study of Mus musculus with 9 samples.

Results

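The genes described here are 8 CC chemokine ligands, Ccl2, Ccl3, Ccl4, Ccl5, Ccl6, Ccl7, Ccl8 and Ccl9, and the chemokine receptor gene Ccr2. They were chosen by gene symbol in the array's annotation, and all 9 were found, each with 1 transcript cluster (the probe set that stands for a gene), among 19572 annotated clusters. White adipose tissue of male mice was measured on 9 Clariom S arrays in 3 groups of 3, which the series text describes as 3 mice per group. The first group held mice of the strain C57BL/6JHamSlc-ob/ob that received VE, a Vigna umbellata (rice bean) extract, at 100 mg/kg by oral gavage for 6 weeks. The second held ob/ob mice of the same strain given vehicle, and the third wild type mice (C57BL/6JHamSlc-+/+) given vehicle. All mice were 6 weeks old on arrival, had a week of acclimatization, ate standard chow and were studied to day 42. The ob/ob strain lacks functional leptin in every tissue and becomes obese on ordinary food. Leptin deficiency and obesity therefore cannot be told apart in these groups, and the fat depot was not stated.

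CC chemokines are small secreted proteins that bind G protein-coupled receptors on leukocytes and direct their migration along a gradient. Ccr2 is the receptor that brings inflammatory monocytes out of the bone marrow and into tissues, and Ccl2 is its main ligand. In fat, monocytes recruited in this way can become macrophages, and both adipocytes and macrophages are known sources of Ccl2. Many of the ligand genes lie side by side in the genome, as copies of an ancestral gene.

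Levels are the submitters' normalized log2 signals, and the median of all clusters lay between 6.11 and 6.26 on each array. Differences are log2 differences between group means, fitted with limma over all 9 arrays, and a gene is called at a limma adjusted p under 0.05. With 3 arrays against 3, an exact permutation test cannot give a p under 0.1, so the calls rest on a spread pooled over groups and moderated over genes. All 8 adipocyte markers lay above the array median on every array. A list of 14 measured macrophage markers had an array mean of 12.35 to 13.17 in VE, 12.57 to 12.70 in ob/ob vehicle and 7.82 to 9.46 in wild type mice, with wild type array 3 the highest of its group. All 12 epithelial markers were lower in both ob/ob groups than in wild type, and their mean was 4.41 to 4.83 in VE, 4.59 to 4.80 in ob/ob vehicle, and 10.23, 10.65 and 8.01 on wild type arrays 1, 2 and 3. Values without wild type arrays 1 and 2 are therefore given for the genes named below whose calls they end. Such a fit has 1 wild type array, so a call can end there although the difference is unchanged. Wild type array 3 also kept an epithelial mean above every ob/ob array, so the setting does not remove this tissue difference.

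The first comparison, of ob/ob vehicle with wild type mice, asked which CC chemokines differ in the fat of obese, leptin-deficient animals. Of the 9 genes, 5 were higher in ob/ob vehicle (Ccl2, Ccl3, Ccl6, Ccl7 and Ccl9), 0 were lower and 4 did not pass (Ccl4, Ccl5, Ccl8 and Ccr2). Over all annotated clusters limma called 14.1%, with 9.02% higher and 5.05% lower. The ob/ob vehicle arrays lay above all wild type arrays for 6 of the 9 genes, against 15.7% of all clusters, and below them for 0, against 13.1%. The median difference was 2.41 over the 9 genes and −0.037 over all clusters. All 9 differences were above 0, as were those of 47.4% of clusters. VE-treated ob/ob mice differed from wild type mice in 6 of the 9 genes, namely the same 5 and Ccl5, all higher, against 12.4% of clusters called higher, 7.58% lower and 20.0% in all. Both of these comparisons use the same wild type arrays, so they are not independent. In bulk tissue, fewer cells of a type and less RNA per cell cannot be told apart.

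**Figure D1:**
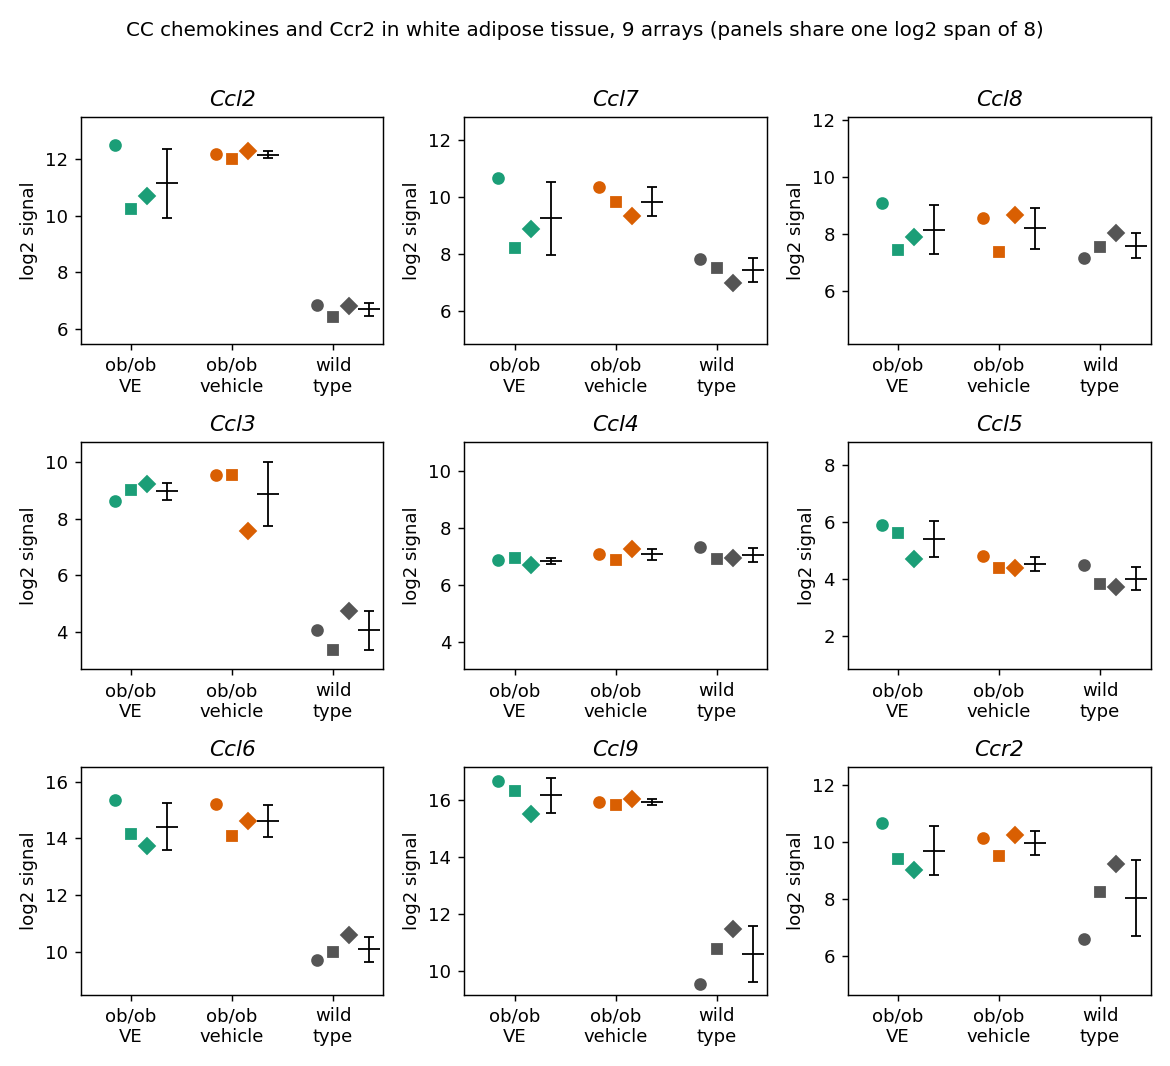
Log2 array signal of each of the 9 genes, in 1 panel per gene, for VE-treated ob/ob, vehicle-treated ob/ob and wild type mice from left to right. Circles, squares and diamonds stand for arrays 1, 2 and 3 of a group, and the bar shows the mean ± SD. For Ccl2, Ccl3, Ccl6, Ccl7 and Ccl9 both ob/ob groups lie above all wild type arrays, while for Ccl4 and Ccl8 the groups overlap.

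Ccl2, Ccl7 and Ccl8 belong to the group named for attracting monocytes. Ccl2 read 12.50, 10.22 and 10.69 in VE-treated ob/ob, 12.16, 12.01 and 12.28 in vehicle-treated ob/ob and 6.84, 6.45 and 6.81 in wild type mice. All 6 ob/ob arrays lay far above all wild type arrays. The vehicle arrays lay within a narrow band, whereas VE array 1 stood above VE arrays 2 and 3. Ccl2 was higher by 5.45 ± 0.49 on the log2 scale (SE, n = 3 arrays per group) in vehicle-treated ob/ob than in wild type fat, 43.7-fold (adjusted p = 8.71e-05 by limma). In VE against wild type mice the log2 difference was 4.44 ± 0.49, 21.7-fold (adjusted p = 0.000253 by limma). Without wild type arrays 1 and 2, the log2 difference of Ccl2 between ob/ob vehicle and wild type was 5.34 (adjusted p = 0.00119 by limma), with the lone wild type array assumed to vary like the other groups.

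Ccl7, the neighbour of Ccl2, encodes a ligand of Ccr2 that also binds Ccr1 and Ccr3. It read 10.67, 8.21 and 8.86 in VE-treated ob/ob, 10.34, 9.84 and 9.33 in vehicle-treated ob/ob and 7.82, 7.50 and 6.97 in wild type mice. The 3 vehicle arrays and the 3 VE arrays each lay above all wild type arrays, although VE array 2 cleared the highest wild type array by little. Ccl7 was higher by 2.41 ± 0.56 on the log2 scale (SE, n = 3) in vehicle-treated ob/ob than in wild type fat, 5.30-fold (adjusted p = 0.0171 by limma). In VE mice it was higher than in wild type by 1.82 ± 0.56, 3.52-fold (adjusted p = 0.0446 by limma). Leaving out vehicle array 1 (2.16, limma adjusted p = 0.067) or vehicle array 2 (2.41, limma adjusted p = 0.0609) ended the first call. The call in VE ended in 13 of 23 alternative settings, without any single array but VE array 2 among them (1.11 without VE array 1), at limma adjusted p up to 0.134. Without wild type arrays 1 and 2 together it was 2.28 in VE (limma adjusted p = 0.085).

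Ccl8 is grouped with Ccl2 and Ccl7 by sequence, and in mice its protein also activates Ccr8. Ccl8 read 9.09, 7.42 and 7.89 in VE-treated ob/ob, 8.55, 7.35 and 8.66 in vehicle-treated ob/ob and 7.16, 7.52 and 8.04 in wild type mice. All 3 groups overlapped, and ob/ob vehicle array 2 read lower than 2 of the wild type arrays. The log2 difference was 0.61 ± 0.48 (SE, n = 3) between ob/ob vehicle and wild type, with a 95% interval of −0.46 to 1.68 (adjusted p = 0.459 by limma). Between VE and wild type it was 0.56 ± 0.48, with an interval of −0.51 to 1.63 (adjusted p = 0.445 by limma). These intervals include differences of over 1 on the log2 scale, so they do not show equal levels.

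Ccl3, Ccl4 and Ccl5 encode inflammatory chemokines, and Ccl3 and Ccl5 bind Ccr1. Ccl3 read 8.62, 9.02 and 9.23 in VE-treated ob/ob, 9.52, 9.54 and 7.57 in vehicle-treated ob/ob and 4.08, 3.38 and 4.74 in wild type mice. All 6 ob/ob values exceeded the array median, and all 3 wild type values lay below it. Vehicle array 3 read lowest of the 6 ob/ob arrays. Ccl3 was higher by 4.81 ± 0.53 on the log2 scale (SE, n = 3) in vehicle-treated ob/ob than in wild type fat, 28.1-fold (adjusted p = 0.000288 by limma). The log2 difference between VE and wild type mice was 4.89 ± 0.53, 29.7-fold (adjusted p = 0.000236 by limma).

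Ccl4 is the chromosomal neighbour of Ccl3. It read 6.87, 6.94 and 6.72 in VE-treated ob/ob, 7.08, 6.90 and 7.27 in vehicle-treated ob/ob and 7.35, 6.91 and 6.94 in wild type mice. All 9 values lay above the array median and within 0.63 of each other on the log2 scale, the narrowest span among the 9 genes, and the groups overlapped. The log2 difference was 0.017 ± 0.22 (SE, n = 3) between ob/ob vehicle and wild type, with a 95% interval of −0.48 to 0.51 (adjusted p = 0.973 by limma). Between VE and wild type it was −0.22 ± 0.22, with an interval of −0.72 to 0.27 (adjusted p = 0.517 by limma).

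Ccl5 is made by activated T cells among others. It read 5.89, 5.61 and 4.69 in VE-treated ob/ob, 4.82, 4.38 and 4.38 in vehicle-treated ob/ob and 4.48, 3.84 and 3.73 in wild type mice. It lay below the array median on all 9 arrays. The VE arrays lay above all wild type arrays, and VE array 3 within the range of the vehicle arrays. Ccl5 was higher by 1.38 ± 0.34 on the log2 scale (SE, n = 3) in VE than in wild type mice, 2.60-fold (adjusted p = 0.0194 by limma). Leaving out VE array 1 (1.13, limma adjusted p = 0.0796) or VE array 2 (1.27, limma adjusted p = 0.0748) ended that call. Between ob/ob vehicle and wild type the log2 difference was 0.51 ± 0.34 (adjusted p = 0.382 by limma). The mean of 10 measured T and NK cell markers lay at 5.06 to 5.69 in VE-treated ob/ob, 5.04 to 5.37 in vehicle-treated ob/ob and 5.03 to 5.23 in wild type mice. Between 2 and 4 of these markers exceeded the array median in VE, 1 to 3 in ob/ob vehicle and 1 to 2 in wild type mice, and their part in the Ccl5 values was not tested.

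Ccl6 and Ccl9 encode ligands of Ccr1 that are known in rodents and are made by macrophages and other myeloid cells. Ccl9 read 16.69, 16.32 and 15.51 in VE-treated ob/ob, 15.93, 15.85 and 16.06 in vehicle-treated ob/ob and 9.55, 10.77 and 11.48 in wild type mice. All 6 ob/ob arrays lay more than 4 above the highest wild type array on the log2 scale. Ccl9 was higher by 5.35 ± 0.46 on that scale (SE, n = 3) in vehicle-treated ob/ob than in wild type fat, 40.7-fold (adjusted p = 7.07e-05 by limma). In VE mice it was higher than in wild type by 5.57 ± 0.46, 47.6-fold (adjusted p = 5.33e-05 by limma).

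Ccl6 read 15.35, 14.16 and 13.74 in VE-treated ob/ob, 15.20, 14.07 and 14.60 in vehicle-treated ob/ob and 9.73, 9.99 and 10.59 in wild type mice. Here too every ob/ob array was above every wild type array, and the VE arrays were the most spread. The log2 difference was 4.52 ± 0.44 (SE, n = 3) between ob/ob vehicle and wild type, 22.9-fold (adjusted p = 0.000142 by limma). It was 4.31 ± 0.44 between VE and wild type, 19.9-fold (adjusted p = 0.000183 by limma). Beside Ccl2, Ccl3, Ccl6, Ccl7 and Ccl9, 11 of the 14 macrophage markers were higher in vehicle-treated ob/ob than in wild type fat. Of these markers 0 were lower and the median difference was 4.25, where 9.02% of all clusters were higher and 5.05% lower. Against wild type, VE mice likewise had 11 of the 14 higher (12.4% of all clusters) and 0 lower (7.58%), with a median of 3.80. The part of these markers in the chemokine values was not tested.

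Promoter sequences from RefSeq (GRCm38.p6) were given for 5 of the 9 genes, Ccl3, Ccl6, Ccl8, Ccl9 and Ccr2, and Ccl2, Ccl4, Ccl5 and Ccl7 are named only. Those of 3 genes that were higher in ob/ob mice and of Ccl8, which did not pass, are printed to show how far these ligand genes share letters around their starts. Each runs 5′ to 3′ on the gene's strand, from 250 bases before the start to 50 bases after it. They lie on chromosome 11, at chr11:83578587-83578886 on the minus strand for Ccl9, chr11:83593038-83593337 on the minus strand for Ccl6, chr11:83649329-83649628 on the minus strand for Ccl3 and chr11:82114935-82115234 on the plus strand for Ccl8. Capitals mark every match, on either strand, to an NF-kappaB consensus, the AP-1 letters TGANTCA, the ETS core letters AGGAAGT or the TATA box letters TATAAA, which were chosen with the sequences in view.
Ccl9: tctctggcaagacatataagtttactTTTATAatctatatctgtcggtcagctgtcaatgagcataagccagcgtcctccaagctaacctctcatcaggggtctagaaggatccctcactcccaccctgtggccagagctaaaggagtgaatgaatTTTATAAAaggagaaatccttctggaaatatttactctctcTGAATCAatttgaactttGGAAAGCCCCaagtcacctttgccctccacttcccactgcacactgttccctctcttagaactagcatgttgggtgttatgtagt
Ccl6: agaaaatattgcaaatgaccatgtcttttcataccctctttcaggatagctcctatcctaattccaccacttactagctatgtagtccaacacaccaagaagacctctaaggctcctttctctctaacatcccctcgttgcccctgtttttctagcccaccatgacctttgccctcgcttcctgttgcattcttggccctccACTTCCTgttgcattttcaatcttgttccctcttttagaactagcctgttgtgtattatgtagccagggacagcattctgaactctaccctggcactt
Ccl3: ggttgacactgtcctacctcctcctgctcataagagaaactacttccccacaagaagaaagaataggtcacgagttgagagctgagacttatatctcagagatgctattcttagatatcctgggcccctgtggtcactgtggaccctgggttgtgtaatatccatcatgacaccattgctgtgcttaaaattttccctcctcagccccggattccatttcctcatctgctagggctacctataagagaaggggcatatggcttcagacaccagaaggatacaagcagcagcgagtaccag
Ccl8: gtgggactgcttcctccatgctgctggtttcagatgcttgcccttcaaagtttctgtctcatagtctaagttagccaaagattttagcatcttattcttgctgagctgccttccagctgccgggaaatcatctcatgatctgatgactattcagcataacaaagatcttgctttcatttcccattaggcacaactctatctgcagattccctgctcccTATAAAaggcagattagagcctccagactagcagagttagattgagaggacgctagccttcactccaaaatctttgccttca
Counted with the start at position 0, Ccl9 held an NF-kappaB match beginning at −35 and an AP-1 match at −53, besides TATA box letters at −224, −94 and −92, of which the last pair overlap. Ccl6 held the ETS core letters at −48, and Ccl8 held TATA box letters at −32. Ccl3 and Ccr2 held none of these letters in the window, which says nothing about the factors themselves. Of 32851 promoters of this length, 4.51% held the NF-kappaB consensus, 7.81% the AP-1 letters, 9.35% the ETS core and 13.6% the TATA box letters. The best local alignment among the 5 promoters joined Ccl6 and Ccl9, with 59 identical bases in 74 aligned columns (79.7%), beginning at −59 in Ccl6 and at −18 in Ccl9. The next longest joined Ccl9 and Ccr2, with 28 identical bases in 39 columns.

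Ccr2 encodes the receptor of Ccl2 and Ccl7 and is carried by inflammatory monocytes. It read 10.69, 9.42 and 9.02 in VE-treated ob/ob, 10.15, 9.51 and 10.27 in vehicle-treated ob/ob and 6.59, 8.25 and 9.24 in wild type mice. The vehicle arrays lay above all wild type arrays, while VE array 3 read below wild type array 3. The log2 difference was 1.95 ± 0.63 (SE, n = 3) between ob/ob vehicle and wild type, 3.86-fold, with a 95% interval of 0.55 to 3.35, and it did not pass (adjusted p = 0.0686 by limma). Between VE and wild type it was 1.68 ± 0.63, 3.21-fold, with an interval of 0.28 to 3.09 (adjusted p = 0.0882 by limma). Both values depended on wild type arrays 1 and 3. Without wild type array 1 the log2 difference was 1.23 in ob/ob vehicle against wild type (adjusted p = 0.167 by limma). In VE against wild type it was then 0.965 (adjusted p = 0.244 by limma). Without wild type array 3 Ccr2 passed at 2.29 in VE against wild type (adjusted p = 0.0158 by limma) and at 2.56 in ob/ob vehicle against wild type (adjusted p = 0.011). With wild type array 3 as the only wild type array, the 2 log2 differences were 0.47 (adjusted p = 0.672) and 0.74 (adjusted p = 0.504). The same array had the highest mean of macrophage markers in its group, at 9.46 against 7.82 and 8.19 on wild type arrays 1 and 2, and the highest Ccl9. Whether this tissue difference accounts for the Ccr2 values was not tested.

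The comparison of VE with vehicle in ob/ob mice asked which transcripts differ with the extract. Limma called 0 of the 9 genes, all at an adjusted p of 1, while it called 5 of all clusters, which is 0.0255%, all of them higher (0.0255%) and 0% lower. At an unadjusted p under 0.05 it found 1 of the 9 genes, Ccl5, and 893 of the 19572 clusters. The VE and vehicle arrays overlapped for all 9 genes. Over all clusters, VE arrays lay wholly above the vehicle arrays for 5.77% and wholly below them for 6.79%. The log2 difference was above 0 for 3 of the 9 genes (Ccl3, Ccl5 and Ccl9) and for 46.5% of clusters, and its median was −0.21 over the 9 genes and −0.023 over all clusters.

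Ccl2 had the lowest log2 difference between VE and vehicle, −1.01 ± 0.49 (SE, n = 3), with a 95% interval of −2.10 to 0.071 and an unadjusted p of 0.0639 by limma. VE arrays 2 and 3 read below all vehicle arrays and VE array 1 above them. Single VE arrays moved the value in both directions, to −1.70 without VE array 1 (adjusted p = 0.333 by limma), −0.56 without VE array 2 and −0.79 without VE array 3 (both at an adjusted p of 1). Ccl7 also read highest on VE array 1, with a log2 difference of −0.59 ± 0.56 and an interval of −1.83 to 0.65. It was −1.30 without VE array 1 and −0.072 without VE array 2 (both at a limma adjusted p of 1). Ccl5 had the highest log2 difference, 0.87 ± 0.34, 1.83-fold, with an interval of 0.10 to 1.64 and an unadjusted p of 0.0298 by limma.

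The other differences between VE and ob/ob vehicle were smaller. For Ccl9 the log2 difference was 0.23 ± 0.46, with a 95% interval of −0.80 to 1.25. For Ccl6 it was −0.21 ± 0.44, with an interval of −1.19 to 0.78. Ccl3 had a log2 difference of 0.08 ± 0.53 and an interval of −1.10 to 1.26. Ccr2 stood at −0.27 ± 0.63 with an interval of −1.67 to 1.14, Ccl4 at −0.24 ± 0.22 with −0.74 to 0.26, and Ccl8 at −0.053 ± 0.48 with −1.12 to 1.02. A missed threshold does not show that the extract left these transcripts unchanged.

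**Figure D2:**
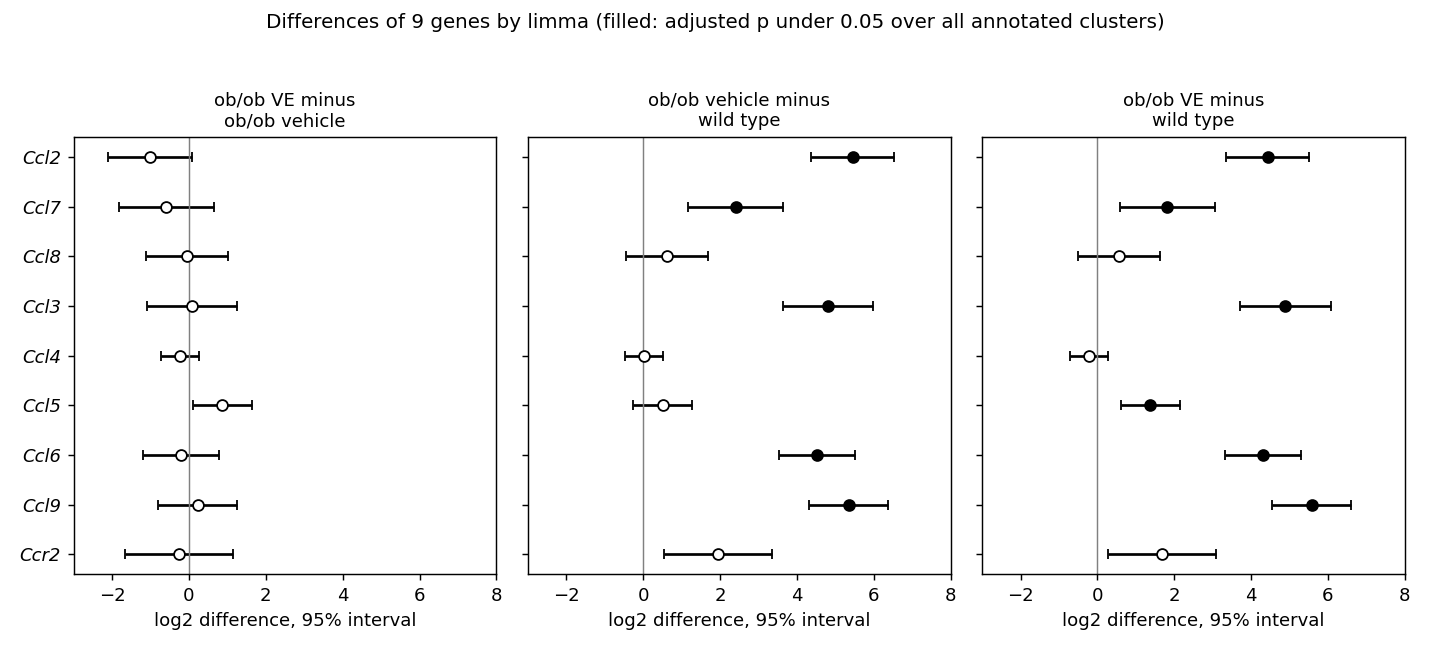
Log2 differences with 95% intervals for the 9 genes, in 3 panels: VE minus ob/ob vehicle, ob/ob vehicle minus wild type, and VE minus wild type. Filled points have a limma adjusted p under 0.05. No point is filled between VE and vehicle, 5 are in ob/ob vehicle against wild type and 6 in VE against wild type.

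Against wild type, VE arrays lay wholly above the wild type arrays for 6 of the 9 genes (19.5% of clusters) and wholly below them for 0 (17.7%). The log2 difference was above 0 for 8 of the 9 genes, Ccl4 being the exception, and for 45.4% of clusters. Its median was 1.82 over the 9 genes and −0.067 over all clusters.

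Within the ob/ob mice, the genes differed in how widely they varied. Over the 6 ob/ob arrays the log2 range was 2.46 for Ccl7, 2.28 for Ccl2, 1.97 for Ccl3 and 1.74 for Ccl8. It was 1.67 for Ccr2, 1.61 for Ccl6, 1.51 for Ccl5, 1.18 for Ccl9 and 0.55 for Ccl4. VE array 1 was the highest of its group for 7 of the 9 genes, all but Ccl3 and Ccl4, and the highest for 37.3% of all clusters. VE array 3 was the lowest for 5 of the 9, against 37.7% of all clusters, and VE array 2 for 3, against 31.6%. Vehicle array 2 was the lowest of its group for 7 of the 9 genes, a tie in Ccl5 included, and the lowest for 31.6% of all clusters. VE array 1 also had the highest mean of the macrophage markers among all 9 arrays, at 13.17, against 12.76 and 12.35 on VE arrays 2 and 3, and its part in the spread was not tested.

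**Figure D3:**
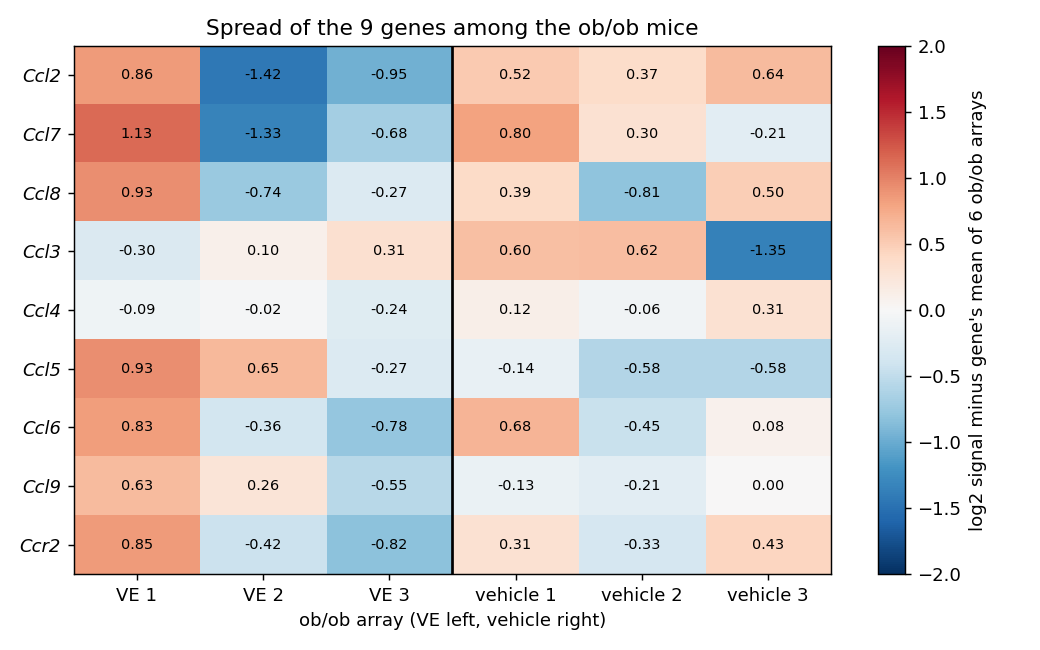
Log2 signal of each of the 9 genes on the 3 VE arrays (left) and the 3 ob/ob vehicle arrays (right), as the difference from the gene's own mean over these 6 arrays. Ccl2 and Ccl7 are high on VE array 1 and low on VE arrays 2 and 3, and Ccl3 is low on vehicle array 3.

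The ligand genes lie in 2 runs on mouse chromosome 11. In the order of the RefSeq annotation, Ccl2, Ccl7, Ccl11, Ccl12, Ccl8 and Ccl1 follow each other with 0 other protein-coding genes between them, and after 25 others come Ccl5, Ccl9, Ccl6, Ccl3 and Ccl4. Genes that passed and genes that did not stood side by side in both runs. In the first run Ccl2, Ccl7 and Ccl11 were higher in vehicle-treated ob/ob than in wild type fat, while Ccl12 (0.59 ± 0.29 on the log2 scale; adjusted p = 0.216 by limma), Ccl8 and Ccl1 (−0.29 ± 0.23; adjusted p = 0.469) did not pass. In the second run Ccl9, Ccl6 and Ccl3 passed, and Ccl5 and Ccl4 at its 2 ends did not. Ccr2 lies on chromosome 9, after the receptor genes Ccr1, Ccr1l1 and Ccr3.

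**Figure D4:**
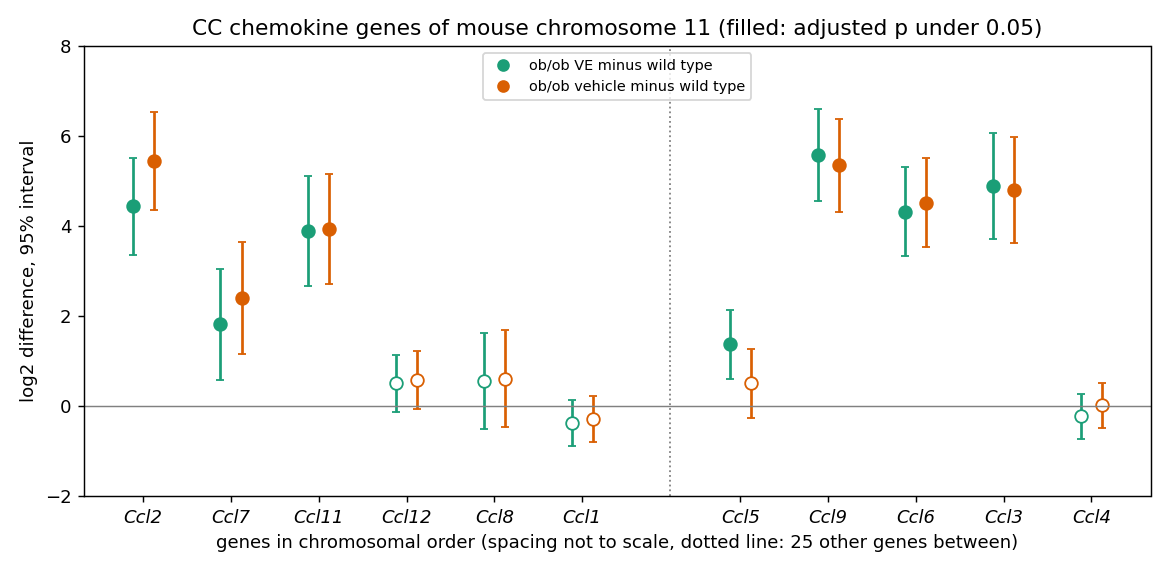
Log2 differences from wild type for 11 ligand genes in their order along chromosome 11, for VE minus wild type and ob/ob vehicle minus wild type. The gap stands for 25 other protein-coding genes. Ccl2, Ccl7 and Ccl11 in the first run and Ccl9, Ccl6 and Ccl3 in the second are filled in both comparisons, which marks a limma adjusted p under 0.05, and Ccl5 is filled for VE minus wild type.

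Of 13 other CC ligands, 2 were higher in vehicle-treated ob/ob than in wild type fat, 3 were lower and 8 did not pass, where 9.02% of all clusters were higher and 5.05% lower. Their median log2 difference was −0.37. Ccl11, eotaxin, a ligand of Ccr3 that attracts eosinophils, read 14.21, 14.40 and 14.31 in VE-treated ob/ob, 15.59, 13.77 and 13.68 in vehicle-treated ob/ob and 10.92, 9.35 and 10.97 in wild type mice. Both ob/ob groups lay above all wild type arrays. Ccl11 was higher by 3.93 ± 0.55 (log2, SE, n = 3) in vehicle-treated ob/ob than in wild type fat (adjusted p = 0.00123 by limma) and by 3.89 in VE than in wild type mice (adjusted p = 0.00115). Ccl22, a ligand of Ccr4 made by dendritic cells and macrophages, was dimmer than the array median throughout and higher by 1.04 ± 0.30 in ob/ob vehicle (adjusted p = 0.043 by limma) and by 1.54 in VE (adjusted p = 0.00609).

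The ligands that were lower in ob/ob vehicle are known from lymphatic vessels and epithelia. Ccl21a, a ligand of Ccr7 made by lymphatic endothelium, read 9.67, 5.74 and 5.55 in VE-treated ob/ob, 7.22, 6.80 and 10.35 in vehicle-treated ob/ob and 11.46, 12.05 and 13.04 in wild type mice. All ob/ob arrays lay below all wild type arrays, over a wide range. The log2 difference from wild type was −4.06 ± 1.16 in ob/ob vehicle (adjusted p = 0.0426 by limma) and −5.20 in VE (adjusted p = 0.0118), and the mouse genome holds near-identical copies of this gene, so the value may not belong to Ccl21a alone. Ccl28, a chemokine of mucosal epithelia, was lower at −0.96 ± 0.24 in ob/ob vehicle (adjusted p = 0.0242 by limma) and at −0.92 in VE (adjusted p = 0.0227). Ccl25, a ligand of Ccr9 from gut and thymus, was lower at −1.03 ± 0.30 in ob/ob vehicle (adjusted p = 0.0435 by limma) and did not pass in VE (−0.85, adjusted p = 0.0703). Leaving out a VE array left the log2 differences between ob/ob vehicle and wild type unchanged. It altered only the pooled spread and its degrees of freedom, so such an ending does not show dependence on that array. Leaving out single arrays ended calls of Ccl21a, Ccl22, Ccl25 and Ccl28. In ob/ob vehicle that of Ccl21a ended without VE array 2, vehicle array 1 or 2, or any wild type array (limma adjusted p up to 0.157), and that of Ccl22 without any VE array, vehicle array 1 or 2, or wild type array 1 or 2 (up to 0.154). That of Ccl25 ended without any VE array, vehicle array 1 or 3, or wild type array 2 or 3 (up to 0.136), and that of Ccl28 without vehicle array 1 or 2, or wild type array 1 (up to 0.0796). In VE the call of Ccl21a ended without VE array 2 (0.0527), and that of Ccl28 without any VE array or wild type array 1 (up to 0.0714). Without both wild type arrays 1 and 2, the calls of these ligands in ob/ob vehicle ended, as did those of Ccl22 and Ccl28 in VE. The log2 differences in ob/ob vehicle were then −4.92 for Ccl21a, 0.92 for Ccl22, −1.04 for Ccl25 and −1.02 for Ccl28. In VE they were 1.42 for Ccl22 and −0.98 for Ccl28. Those of Ccl21a, Ccl25 and Ccl28 were thus no smaller than over all arrays, and with 1 wild type array the ended calls do not show a lost difference. The epithelial markers given above, 12 of 12, were lower in ob/ob than in wild type mice, as were Ccl21a, Ccl25 and Ccl28. Within the wild type group Ccl21a read highest on array 3 (13.04), where the epithelial mean was lowest (8.01). The part of these markers was not tested.

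Of 13 other CC receptors measured, 3 were higher in vehicle-treated ob/ob than in wild type fat, 0 were lower and 10 did not pass, against the same shares of all clusters, with a median log2 difference of 0.037. Ccr1, which binds Ccl3, Ccl5, Ccl6, Ccl7 and Ccl9, read 7.72, 7.42 and 6.92 in VE-treated ob/ob, 7.07, 7.27 and 7.77 in vehicle-treated ob/ob and 4.60, 5.52 and 4.78 in wild type mice. Every ob/ob array was above every wild type array, and above the array median. Ccr1 was higher by 2.40 ± 0.33 on the log2 scale in ob/ob vehicle (adjusted p = 0.001 by limma) and by 2.39 in VE (adjusted p = 0.000927) than in wild type mice. Ccr3, an eosinophil receptor that binds Ccl11 and Ccl7, was higher by 2.16 ± 0.36 in ob/ob vehicle (adjusted p = 0.00355 by limma) and by 1.37 in VE (adjusted p = 0.0256). Ccrl2, an atypical receptor that holds the attractant chemerin at the cell surface, was higher by 1.91 ± 0.43 in ob/ob vehicle (adjusted p = 0.0152 by limma) and by 2.01 in VE (adjusted p = 0.00969). The Ccr3 call in VE ended without VE array 1 or 2, or wild type array 2 (limma adjusted p up to 0.0965), and the Ccrl2 call in ob/ob vehicle without vehicle array 1 (0.052) or 2 (0.0685). Without wild type arrays 1 and 2, Ccrl2 did not pass in VE (1.11, adjusted p = 0.148 by limma) or in ob/ob vehicle (1.01, adjusted p = 0.214), and Ccr3 did not pass in VE (1.43, adjusted p = 0.0524). VE mice against wild type had 2 of the 13 ligands higher, 2 lower and 9 not passed, and 3 of the 13 receptors higher, 0 lower and 10 not passed. Over all clusters that comparison had 12.4% higher and 7.58% lower. Against ob/ob vehicle, 0 of the 13 ligands and 0 of the 13 receptors passed in VE, with medians of −0.05 and −0.08.

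**Figure D5:**
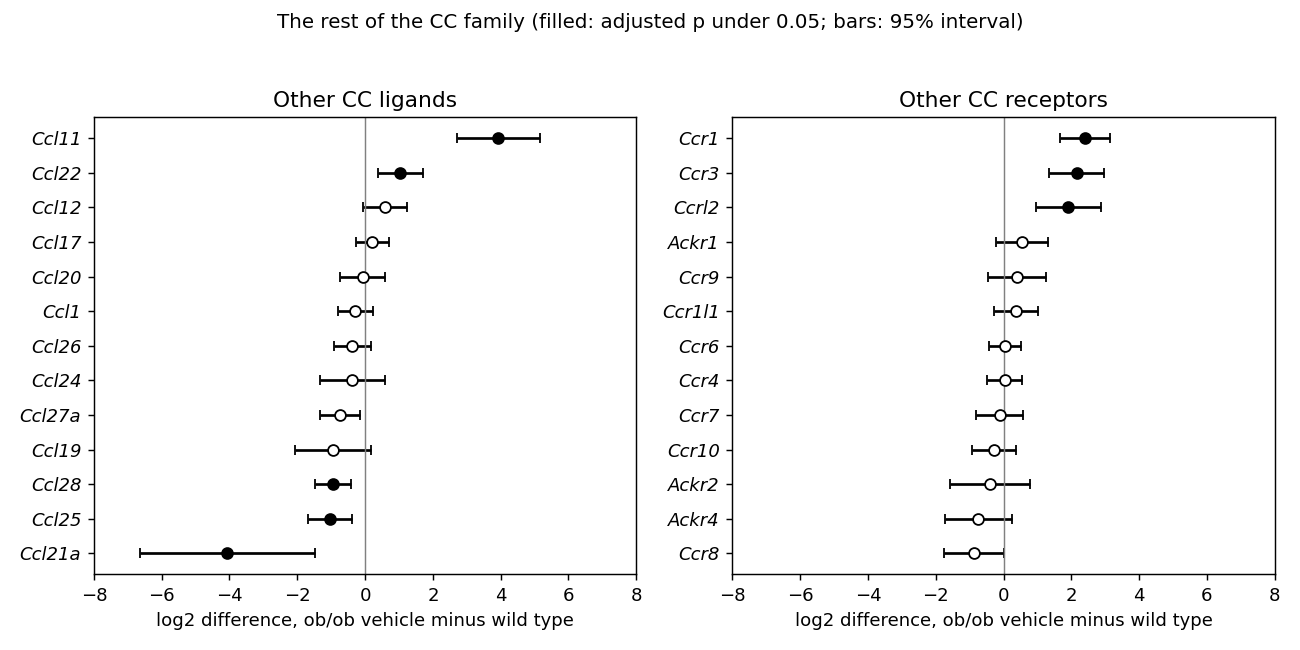
Log2 differences, ob/ob vehicle minus wild type, with 95% intervals for the 13 other CC ligands and the 13 other CC receptors. Filled points have a limma adjusted p under 0.05: Ccl11, Ccl22, Ccr1, Ccr3 and Ccrl2 lie above 0, and Ccl21a, Ccl25 and Ccl28 below it.

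Genes upstream of the chemokines were taken from a list of NF-kappaB subunits, their regulators and the receptors that activate them. Of 18 measured, 7 were higher in vehicle-treated ob/ob than in wild type fat, 0 were lower and 11 did not pass, beside 9.02% of all clusters higher and 5.05% lower, with a median log2 difference of 0.62. Tnfrsf1b, a receptor of tumour necrosis factor found on leukocytes, was at 10.56 ± 0.18 in VE, 10.97 ± 0.31 in ob/ob vehicle and 7.03 ± 0.14 in wild type mice (log2, SD, n = 3), a difference of 3.93 ± 0.23 (SE) between ob/ob vehicle and wild type (adjusted p = 1.4e-05 by limma). The cytokine gene Tnf itself was higher in ob/ob vehicle by 2.29 ± 0.22 (adjusted p = 0.000142 by limma) and in VE by 1.66 (adjusted p = 0.000864). The smallest t among the called genes were those of Tnfaip3, a feedback inhibitor of NF-kappaB, at 1.37 ± 0.39 (adjusted p = 0.0412 by limma), and of the subunit Rela at 0.98 ± 0.26 (adjusted p = 0.0319). Rela was not past the threshold in VE against wild type (0.30, adjusted p = 0.452 by limma). In ob/ob vehicle against wild type, the Rela call ended without VE array 2, vehicle array 1 or 2, or wild type array 1 or 2 (limma adjusted p up to 0.123), and that of Tnfaip3 without any array but wild type array 2 (up to 0.155). Quantile normalization ended both calls, with Rela at 0.57 (limma adjusted p = 0.181) and Tnfaip3 at 1.17 (0.0731). The Rela call also ended without both wild type arrays 1 and 2, with Rela at 0.93. VE against wild type had 6 of the 18 higher (12.4% of all clusters) and 0 lower (7.58%), and VE against ob/ob vehicle 0, with a median of −0.043.

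Genes that act after a chemokine receptor were taken from a second list. Of 18 measured genes of receptor signalling and migration, 10 were higher in vehicle-treated ob/ob than in wild type fat, 0 were lower and 8 did not pass. The median log2 difference was 1.52, and of all clusters 9.02% were higher and 5.05% lower. Pik3cg, the catalytic subunit of the phosphoinositide kinase that G protein-coupled receptors activate in leukocytes, was higher by 3.68 ± 0.26 (adjusted p = 2.5e-05 by limma). Its regulatory subunit Pik3r5 was higher by 5.30 ± 0.43 (adjusted p = 4.82e-05 by limma). The lowest t among called genes were those of the inhibitory G protein subunit Gnai2 at 1.14 ± 0.23 (adjusted p = 0.00928 by limma) and the integrin Itga4 at 1.90 ± 0.36 (adjusted p = 0.00698). Without wild type arrays 1 and 2 neither passed, with Gnai2 at 1.03 and Itga4 at 1.30. Nor did they in VE against wild type, with Gnai2 at 1.01 and Itga4 at 1.07. Under quantile normalization Gnai2 was at 0.72 in ob/ob vehicle against wild type (limma adjusted p = 0.0554) and did not pass. In VE mice 10 of the 18 were higher than in wild type (12.4% of all clusters) and 0 lower (7.58%), and 0 of the 18 passed against ob/ob vehicle.

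Of 10 measured genes for chemokine cleavage and binding to the cell surface, 5 were higher in vehicle-treated ob/ob than in wild type fat. Of the rest 1 was lower and 4 did not pass. The median log2 difference was 1.47, and of all clusters 9.02% were higher and 5.05% lower. Mmp12, the macrophage elastase, was at 18.80 ± 0.32 in VE, 18.93 ± 0.38 in ob/ob vehicle and 9.87 ± 0.78 in wild type mice (log2, SD, n = 3). Its difference between ob/ob vehicle and wild type was 9.06 ± 0.39 (SE; adjusted p = 2.96e-06 by limma). The syndecan Sdc3, a heparan sulfate proteoglycan, was higher by 4.20 ± 0.49 (adjusted p = 0.000423 by limma) and the gelatinase Mmp2 by 1.68 ± 0.44 (adjusted p = 0.0296). The gelatinase Mmp9, a dim gene, was lower at −1.99 ± 0.41 (adjusted p = 0.00953 by limma). Without empirical Bayes its call ended in ob/ob vehicle (adjusted p = 0.0563 by limma) and in VE (0.0627). In VE it also ended without VE array 1 or VE array 3 (limma adjusted p = 0.0513 for each). The Mmp2 call ended without vehicle array 2 or 3, or wild type array 1 or 2 (limma adjusted p up to 0.117), and without both wild type arrays 1 and 2 the difference was 1.32 in VE (adjusted p = 0.105) and 0.80 in ob/ob vehicle (adjusted p = 0.359). VE against wild type likewise had 5 of the 10 higher (12.4% of all clusters) and 1 lower (7.58%), and VE against ob/ob vehicle 0, with a median of 0.01. The macrophage markers, 11 of 14 higher, moved with all 3 of these lists, and their part was not tested.

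For each of the 7 genes whose values spanned more than 2 on the log2 scale, the transcripts with the most similar profile over the 9 arrays were found by root mean square distance after each gene's mean was taken off. For Ccl9 these were C1qb, a complement subunit (0.29), and Cd53, a leukocyte tetraspanin (0.34), where the median distance over genes was 2.68. For Ccl2 they were Msr1, a macrophage scavenger receptor (0.51), and the histone gene H2ac15 (0.52), against a median of 2.48. For Ccl3 they were Gpr137b (0.32) and the cathepsin gene Ctsz (0.43), against 2.42, and for Ccl6 the glutaminyl cyclase gene Qpct (0.31) and Metrnl (0.37), against 2.19. Ccl7 lay nearest to Ndnf (0.41) and Lacc1 (0.48), against 1.29. Ccr2 lay nearest to Hfe (0.35) and the procollagen protease gene Bmp1 (0.38), against 1.23, and Ccl5 to Aldoart1 (0.21) and Phf11d (0.26), against 0.81. These distances are descriptions of 9 arrays in 3 groups, and any gene that differs between ob/ob and wild type mice by a like amount comes near.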

How the data were processed

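White adipose tissue RNA was hybridized to 9 Clariom S mouse arrays, 1 per sample. The deposited table holds log2 values, rounded to 2 decimals, that the authors normalized by SST-RMA (signal space transformation with robust multi-chip analysis), per the series' design text, in Transcriptome Analysis Console 4 per the submitters' processing notes. The genome build is not given in the sources used here. Scanner files and detection calls were not used here, so signal over background is unknown; precision is limited by the number of arrays. Labels do not number the mice, so p-values measure the spread between these samples.

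Of 22206 transcript clusters, the platform annotation gives 19572 a single gene symbol, 0 several symbols and 2634 none, and the last were left out. They stand for 19505 genes, and a gene with several clusters was read from that with the highest mean. No further normalization was applied. The 3 group means were modelled in limma 3.58.1 (R 4.3.3) with moderated variances (empirical Bayes, 4.02 prior degrees of freedom) and Benjamini-Hochberg adjustment over the 19572 clusters within each comparison. Tests are two-sided, and scripts were tested on simulated data.

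The 9 genes, the 17 further lists (178 genes, 163 measured), the alternatives and the rule for named genes were chosen with earlier results of these data known. The rule names every other CC gene with a call in any comparison, of each pathway list the 2 called genes of highest and the 2 of lowest moderated t in ob/ob vehicle against wild type, and the 2 nearest profiles of each gene that spans over 2, unnamed gene models left out. Marker lists are given as counts and levels, and Ccl12 and Ccl1 as neighbours. Alternatives were quantile normalization, centring of each array on its median, array weights, a replicate block, a fit of the 2 groups alone, ordinary variances without empirical Bayes, a trended or robust prior, all clusters tested, the dimmest 30% of clusters left out, the submitters' threshold (unadjusted p under 0.05 and fold over 1.1, per the design text), an adjusted p under 0.1, the mean of a gene's rows, each array left out in turn, and wild type arrays 1 and 2 left out together. Promoters were searched and aligned with Python 3.11.15 and Biopython 1.88, and figures drawn with matplotlib 3.10.9.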

Additional observations from a re-analysis of the deposited data

How the results depend on the processing

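Of the 9 genes, 4 to 6 were called in ob/ob vehicle against wild type mice over all alternatives and 4 to 7 in VE against wild type, and Ccl2, Ccl3, Ccl6 and Ccl9 were called in both under every alternative. Without empirical Bayes Ccl7 (adjusted p = 0.0894 by limma) was lost in ob/ob vehicle against wild type, as it was with array weights (0.0503), and Ccl5 (0.0633) was lost in VE against wild type. Ccl5 and Mmp9 were among the dimmest 30% and so were not tested where those were left out. Between VE and ob/ob vehicle the count of the 9 genes was 0 except at the submitters' threshold, where it was 1 (Ccl5), while over all clusters it was 5, between 0 and 41 over the alternatives other than that threshold, which gave 893. Over all clusters the other counts were 2754 in ob/ob vehicle against wild type (1641 to 5555) and 3920 in VE against wild type (2314 to 6630). The replicate number as a block gave counts of 5 in ob/ob vehicle against wild type, 0 in VE against ob/ob vehicle and 6 in VE against wild type. Samples with the same number deviated together little (correlations of −0.064 to 0.18 across genes), and not every sample was nearest to its own number. With 3 arrays per group these correlations cannot show whether the numbers pair the mice. The replicate block ended the calls of Ccl21a (0.0582), Ccl22 (0.0588) and Rela (0.0593) in ob/ob vehicle against wild type and added Ccl25 in VE (0.0472). Small differences changed sign, and the cause was not tested. Under quantile normalization Ccl4 stood at −0.052 in ob/ob vehicle against wild type, Ccl3 at −0.032 in VE against ob/ob vehicle and Rela at −0.27 in VE against wild type, while Ccl25 passed in VE against wild type (0.0301) and Tnfaip3 (0.102) and Gnai2 (0.121) did not, and with array weights Ccl8 stood at 0.015 in VE against ob/ob vehicle. Leaving out each array in turn gave log2 differences of −0.077 to 0.16 for Ccl4 in ob/ob vehicle against wild type, and in VE against ob/ob vehicle of −0.57 to 0.41 for Ccl3, −0.67 to 0.13 for Ccl6, −0.53 to 0.30 for Ccl8, −0.032 to 0.56 for Ccl9 and −0.76 to 0.078 for Ccr2. Called CC ligands outside the 9 genes numbered 5 in ob/ob vehicle against wild type and 1 to 6 over the alternatives, and called CC receptors in VE against wild type 3, and 1 without empirical Bayes or without wild type arrays 1 and 2. Signal over background is unknown, which limits what can be said of dim genes such as Ccl5.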

Other observations

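In ob/ob vehicle against wild type mice, where it called 14.1% of all clusters, limma called 0 of 10 measured T and NK cell markers (median log2 difference −0.095), 0 of 6 dendritic cell markers, 0 of 4 B cell markers, 0 of 8 eosinophil and mast cell markers and 1 of 6 neutrophil markers, which was higher. Of 7 monocyte markers, 3 passed as higher and 1 as lower, and the median was 0.48. All 4 B cell markers lay below the array median on all 9 arrays, and 1 of 6 dendritic cell markers lay above it on each, so differences between groups in such dim lists could not be measured well. In VE against wild type, where 12.4% of all clusters were higher and 7.58% lower, 1 of the 10 T and NK cell markers was higher (median 0.22). Of the 8 eosinophil and mast cell markers 1 was higher and 1 lower, and of the 7 monocyte markers 3 were higher and 1 lower. In that comparison 0 dendritic cell, B cell or neutrophil markers passed. Between VE and ob/ob vehicle, 0 markers of any of these lists passed.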
